A study of Drosophila melanogaster with 30 samples.

Results

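Ectopic Ovo was examined in ovarian somatic cells (OSCs) that lack *l(3)mbt*. OSCs are a female *Drosophila melanogaster* culture of follicle cell character that has a Piwi-dependent piRNA pathway and does not hold germ cells. The Δ*l(3)mbt* OSCs are 1 knockout line of these cells, so every library described here carries the same deletion of *l(3)mbt*, including the controls. The cells were nucleofected with *ovo-FLAG*, a plasmid in which the *act5C* promoter drives the FLAG-tagged Ovo-B isoform, or received the empty vector. Their poly(A) RNA was taken 48 h later. There were 3 libraries of each, which are 6 of the 30 RNA libraries of the series. Of the 17807 genes in the table, the 9290 that averaged 2 or more normalized counts in these 6 libraries were tested. The last genes to pass this filter were *Gr59e* (mean 2.0003) and *CG8100* (2.0024), and the first that missed it were *CG7264* (1.9993) and *CG13679* (1.9989). Wild-type OSCs with the same plasmids (3 and 3 libraries), both lines without transfection (4 and 4, total RNA) and sorted *vas*-GFP-positive and negative ovarian cells (3 and 3, total RNA) were used for comparison. The share of cells that took up the plasmid was not available from RNA of whole cultures, in which fewer expressing cells and less RNA per cell cannot be told apart.

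Ovo is a zinc finger transcription factor of the *ovo* locus, which makes germline isoforms (Ovo-A and Ovo-B) and an epidermal isoform (Shavenbaby). Ovo-B is needed for the survival of female germ cells. L(3)mbt is a chromatin protein with MBT repeats that keeps germline genes silent in somatic tissue. Germ cells run a piRNA pathway with parts that somatic follicle cells lack, among them the ping-pong cycle, in which the Argonaute proteins Aub and AGO3 cut transposon and piRNA precursor transcripts in turn at the perinuclear nuage. The comparison therefore asks what more Ovo does in a somatic cell in which the loss of L(3)mbt has already turned *ovo* on.

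Values are normalized counts, which are read counts divided by the size factor of each library. The test was limma on log2(normalized count + 1), with Benjamini-Hochberg adjusted p-values across the 9290 genes. Fold changes are on that scale, where the added 1 and any 0 in 1 library both affect genes with few reads. Calls of higher or lower genes needed an adjusted p below 0.1 and a log2 fold change of more than 0.6 in size. For members of gene lists, rose and fell mean an adjusted p under 0.05 with no limit on the fold. The library of empty vector replicate 3 stood apart with 1632058 counted reads, where the other 5 had 5821469 to 17005949. It had reads in 8847 genes, against 10837 to 11492 in the others, and correlated less with its own group (Pearson r over genes of 0.973 and 0.974) than those 2 libraries did with each other (0.993). Without it, 923 genes were called higher and 258 lower.

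The *ovo* transcript itself was already abundant in Δ*l(3)mbt* OSCs and rose further. *ovo* (FBgn0003028, chromosome X, 5048273 to 5070929 in BDGP6, plus strand) stood at 1015, 969 and 871 normalized counts with the empty vector and at 2465, 2499 and 2231 with *ovo-FLAG*. All libraries with *ovo-FLAG* lay above all controls, with a log2 fold change of 1.33 (SE 0.057, adjusted p = 1.5e-11). These counts add reads of the plasmid to those of the chromosomal gene, which gene-level counts cannot tell apart. In reads per 1000000 counted reads (RPM), *ovo* was at 153.7 ± 11.6 (SD, n = 3) with the empty vector and 401.6 ± 20.5 (SD, n = 3) with *ovo-FLAG*. In wild-type OSCs it went from 1.58 ± 0.34 to 110.0 ± 8.03 (SD, n = 3 each), so that the Δ*l(3)mbt* controls held more *ovo* RNA than wild-type OSCs with the plasmid. Sorted germ cells had 943.3 ± 95.7 (SD, n = 3), in total RNA.

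The *l(3)mbt* transcript was counted in every library and does not check the deletion. It was at 2226, 2256 and 2336 normalized counts with the empty vector and at 2141, 2021 and 2170 with *ovo-FLAG*. In RPM, untransfected Δ*l(3)mbt* OSCs had 449.0 ± 12.6 (SD, n = 4) and wild-type OSCs 483.9 ± 62.8 (SD, n = 4). The libraries labelled Δ*l(3)mbt* were set apart from wild-type OSCs by *ovo*, given above, and *vas*, the germ cell helicase gene, at 165.8 ± 11.1 against 2.39 ± 0.60 RPM (SD, n = 3 each, empty vector). Defining markers of the somatic line were present in all 6 libraries. The sum over 6 of them (*tj*, *zfh1*, *eya*, *Fas3*, *piwi*, *fs(1)Yb*) was 32910 to 33530 with the empty vector and 26610 to 27960 with *ovo-FLAG*. The sum over 6 germ cell markers (*vas*, *nos*, *osk*, *orb*, *bam*, *zpg*) was 1022 to 1151 and 1935 to 2056, most of it *vas*.

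Of the 9290 genes, 876 (9.43%) were higher and 235 (2.53%) lower with *ovo-FLAG*, so that 78.8% of the called genes were higher. With quantile normalization this split was 607 higher and 565 lower, or 51.8% higher. The groups did not overlap for 44.7% of all genes tested, nor for 836 of the higher and 222 of the lower genes. The rises were larger than the falls. Their median log2 fold change was 1.54, with 638 beyond 1 and 268 beyond 2. That of the falls was -0.83, with 72 beyond -1 and 7 beyond -2. Many of the risen genes stayed low, since 172 had a mean under 10 with *ovo-FLAG* and 222 reached 100. There were 73 with at most 3 reads in all empty vector libraries together, of which 13 had none. Those 13 passed the filter on low counts through the *ovo-FLAG* libraries alone. In the median over all genes the log2 fold change was 0.03.

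The largest rises with at least 100 normalized counts were of genes that were close to silent in the controls. *CG43689* went from 3.79, 1.45 and 0.0 with the empty vector to 423.7, 402.6 and 388.0 with *ovo-FLAG* (log2 fold change 7.48, SE 0.47, adjusted p = 1.2e-06). *BigH1*, the linker histone of the germline (FBgn0038252, chromosome 3R, 14663450 to 14664822), went from 13, 8.0 and 15.1 to 457.9, 522.0 and 460.6 (5.24, SE 0.19, adjusted p = 5.3e-13). *nos*, a translational repressor that germline stem cells need (FBgn0002962, 3R, 19157238 to 19160202), was at 5.96, 6.91 and 11.4 and then at 218.1, 200.8 and 221.6 (4.61, SE 0.23). In each of these 3 genes the lowest library with *ovo-FLAG* was more than 10 times the highest control. *alphaTub67C*, a maternal alpha-tubulin, rose from 17.9 ± 7.55 to 434.7 ± 34.0 (SD, n = 3, log2 fold change 4.6). *zpg*, the germline innexin, was at 7.04, 8.0 and 0.0 and then at 104.2, 126.6 and 106.5 (4.76, SE 0.91, adjusted p = 0.012). Its log2 fold change was 3.73 without empty vector replicate 3, which held the 0.0. The other large rises were of genes with other or no known roles. *kkv*, a chitin synthase, went from 11.4, 13.8 and 11.4 to 376.8, 376.8 and 342.3 (4.8, SE 0.16). *PGRP-SA*, a peptidoglycan receptor upstream of Toll, rose by 5.08, *Sod3*, an extracellular superoxide dismutase, by 5.99, and the glutamine synthetase genes *Gs1* and *Gs2* by 4.14 and 4.32 on the log2 scale. Without empty vector replicate 3 these rises were 5.26, 5.62, 3.43 and 4.12. *CG34353* rose by 4.59 and the antisense RNA *asRNA:CR45481* by 5.49 (counts were made by strand). Of these, *asRNA:CR45481*, *Gs1* and *CG34353* were higher in sorted germ cells than in the other ovarian cells, by 8.52 (adjusted p = 1.9e-05), 3.74 (adjusted p = 1.3e-05) and 3.30 (adjusted p = 7.3e-05) on the log2 scale by limma, whereas *PGRP-SA*, *Sod3* and *Gs2* were not called there and *kkv* was not tested.

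The largest falls were smaller, and none of these 12 genes was silenced. *CG9521* went from 273.0, 258.9 and 242.3 to 57.3, 44.3 and 30.0 (log2 fold change -2.58, SE 0.18, adjusted p = 1.5e-08). *nAChRalpha1*, a nicotinic acetylcholine receptor subunit, went from 628.4, 607.2 and 624.7 to 143.3, 133.9 and 152.2 (-2.11, SE 0.08, adjusted p = 6.9e-13). *Ugt317A1*, a UDP-glycosyltransferase gene, went from 258.4, 267.6 and 253.7 to 60.1, 55.6 and 50.5 (-2.21, SE 0.12). All controls of these 3 genes lay above all libraries with *ovo-FLAG*, as for the other 9. *CG9747* fell by 1.88, *CG1827* by 1.70, *CG14855* by 1.5, *CG43394* by 1.32, *CG2812* by 1.3 and *CG9743* by 1.26 on the log2 scale. *brk*, a repressor of Dpp target genes, fell by 1.23, *Bili* by 1.21, and *Thor*, the binding protein of the cap factor eIF4E, by 1.28 (749.2, 579.9 and 621.0 against 332.8, 272.9 and 205.04).

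**Figure D1:**
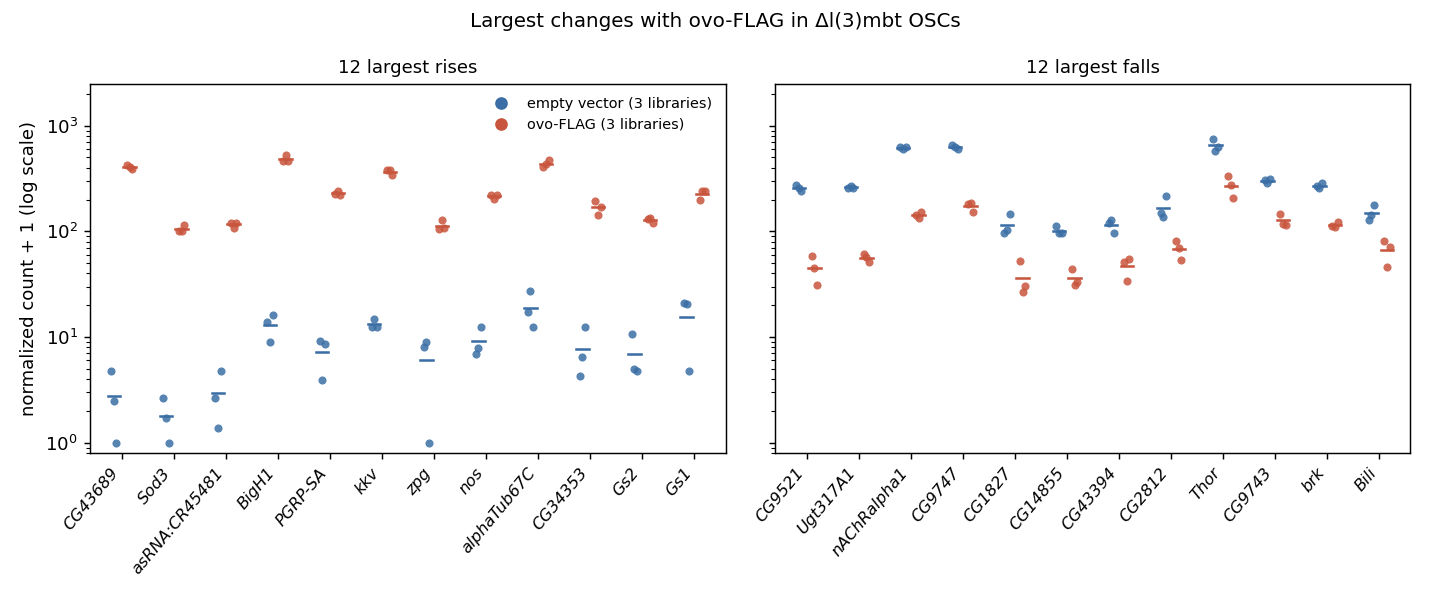
Normalized counts plus 1 (log axis) of the 12 genes with the largest rises and the 12 with the largest falls among called genes whose groups did not overlap and whose higher group had a mean of at least 100. Points are the 3 libraries with the empty vector (blue) and the 3 with *ovo-FLAG* (red), and lines are their means. Controls of the risen genes lie near the floor, whereas the fallen genes stay well above it.

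Of 7 ping-pong and nuage genes of the germline piRNA pathway, 5 rose and 0 fell, with a median log2 fold change of 0.74. By limma at an unadjusted p under 0.05, by edgeR and by DESeq2, 0 fell as well. Over all genes tested, 16.2% rose and 14.2% fell, with a median of 0.03. The largest rise was that of *aub* (FBgn0000146, chromosome 2L, 10997819 to 11001476), from 43.9, 38.9 and 53.01 to 283.8, 277.0 and 287.9 (log2 fold change 2.63, SE 0.13, adjusted p = 3.9e-11). Its ping-pong partner *AGO3* (FBgn0250816, 3L, 23554593 to 23689640) went from 8.13, 5.82 and 15.1 to 40.5, 42.2 and 44.2 (2.11, SE 0.32, adjusted p = 4.5e-05). Both genes had no overlap between groups. *qin*, a Tudor and E3 ligase domain protein that keeps ping-pong between Aub and AGO3, went from 94.3, 109.4 and 140.1 to 228.6, 271.8 and 207.4 (1.05, SE 0.14). *tej*, a nuage Tudor protein, went from 270.3, 284.0 and 280.2 to 434.1, 453.0 and 512.6 (0.74, SE 0.077). *vas*, the helicase that organises nuage, went from 1005, 972 and 1102 to 1574, 1486 and 1538. Its log2 fold change of 0.58 (SE 0.052, adjusted p = 6.6e-08) passed the test for list members but lay just under the 0.6 needed for a call. *krimp*, at 1306, 1392 and 1302 against 1330, 1465 and 1357, and *BoYb* (log2 fold change 0.10, adjusted p = 0.61) did not pass the test.

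Rhino, Deadlock and Cutoff form the complex that transcribes dual-strand piRNA clusters in germ cells, Moonshiner recruits the transcription machinery to it, and Bootlegger and Nxf3 export the transcripts. Of these 6 genes 5 were tested, 1 rose, 1 fell and the median log2 fold change was 0.27. *del* (Deadlock) was strongly expressed in these somatic cells and fell, from 1537, 1582 and 1700 to 1328, 1248 and 1194 (-0.35, SE 0.051, adjusted p = 2.7e-05). *CG13741* (Bootlegger) rose from 510.9, 495.2 and 564.2 to 629.9, 631.2 and 616.7 (0.26, adjusted p = 0.0036). *rhi* was near the filter at 4.33, 4.36 and 0.0 against 5.59, 5.15 and 7.89, with a log2 fold change of 1.22 that did not pass the test (adjusted p = 0.18). *cuff* (46.999 against 58.2 normalized counts in the mean, adjusted p = 0.23) and *Nxf3* (adjusted p = 0.11) did not pass, and *moon* was under the filter with a mean of 1.80. Without empty vector replicate 3, *rhi* was at 0.41 (adjusted p = 0.52 by limma). With that library left out, 6 genes of this list were tested, 3 rose and 1 fell, with *Nxf3* at 0.40 (adjusted p = 0.00032) and *cuff* at 0.47 (adjusted p = 0.043). By edgeR 3 rose and by DESeq2 2.

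**Figure D2:**
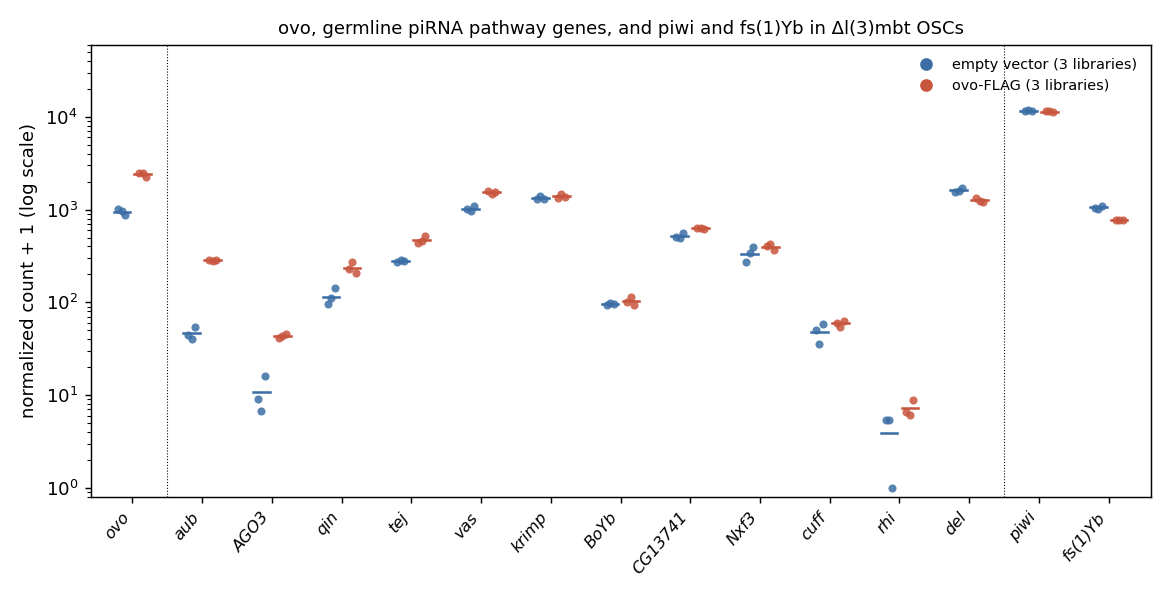
Normalized counts plus 1 (log axis) of *ovo*, of 12 germline piRNA pathway genes that were tested, and of *piwi* and *fs(1)Yb*, in the 3 libraries with the empty vector (blue) and the 3 with *ovo-FLAG* (red). Lines are means. *aub* and *AGO3* are far apart between groups, *vas* and *tej* rise from an already high level, and *del* and *fs(1)Yb* are lower with *ovo-FLAG*.

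The rises left *aub* and *AGO3* far under their level in germ cells. In RPM, *aub* was at 7.31 ± 1.16 with the empty vector, 47.4 ± 1.32 with *ovo-FLAG* and 403.4 ± 11.4 in sorted germ cells (SD, n = 3 each, the last in total RNA). *AGO3* was at 1.57 ± 0.79, 7.09 ± 0.38 and 498.4 ± 30.6. In wild-type OSCs *AGO3* was at 5.24 ± 1.15 with the empty vector and 34.2 ± 5.23 with *ovo-FLAG*, so its level in Δ*l(3)mbt* OSCs with the plasmid lay near that of wild-type OSCs without it. *qin* was likewise at 18.5 ± 3.81 and 39.5 ± 5.26 in Δ*l(3)mbt* OSCs and at 40.6 ± 5.84 and 84.9 ± 9.02 in wild-type OSCs. *vas* was the other way round, at 165.8 ± 11.1 and 256.7 ± 7.68 in Δ*l(3)mbt* OSCs and at 2.39 ± 0.60 and 8.61 ± 2.43 in wild-type OSCs. These levels between the lines were set side by side and not tested.

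Of 9 further germline or nuage genes, 2 rose and 3 fell, with a median log2 fold change of -0.04. *tud*, the founding Tudor protein, fell by 0.25, *spn-E*, a nuage helicase, by 0.19 and *SoYb* by 0.18 on the log2 scale, whereas *mael* rose by 0.13 (adjusted p = 0.037). The adjusted p of *mael* was 0.065 to 0.13 without any 1 of the 6 libraries other than empty vector replicate 3, and that of *SoYb* 0.057 without empty vector replicate 2 and 0.060 without *ovo-FLAG* replicate 1. Of 24 genes shared with or specific to the somatic pathway, 4 rose and 5 fell (median -0.02). *piwi* was at 11480, 11720 and 11670 against 11490, 11430 and 11260 and did not pass the test (adjusted p = 0.48). *fs(1)Yb*, whose protein forms the Yb bodies in which follicle cells make piRNAs, fell from 1035, 1022 and 1106 to 777.4, 763.0 and 774.4 (-0.45, SE 0.051, adjusted p = 1.6e-06). *armi*, the helicase of the same bodies, fell by 0.21, while *Hsp83*, the Hsp90 chaperone, and *wde*, a cofactor of the histone methyltransferase Eggless, rose by 0.49 and 0.51. Named after its values were seen, *Hen1*, the methyltransferase of piRNA ends, had the highest log2 fold change of this list, from 79.1, 62.5 and 26.5 to 101.4, 114.3 and 115.9 (1.10, SE 0.36), with an adjusted p of 0.054 that met the limit for a call and not that for list members. The 26.5 came from empty vector replicate 3, the library with the fewest reads. Of 17 subunit genes of the L(3)mbt and dREAM repressor complexes 0 rose and 2 fell, *Rbf2* by 0.39 (adjusted p = 0.018) and *Myb* by 0.15 (adjusted p = 0.011), both by limma. Without *ovo-FLAG* replicate 1, 0 of the 17 fell, without replicate 2 of that group 1 fell, and without empty vector replicate 3, 4 fell. At an unadjusted p under 0.05 0 rose and 5 fell, by edgeR 0 and 4, and by DESeq2 0 and 2. With quantile normalization 1 rose and 1 fell, and without both the trend and the robust variance 0 fell. The share of this list that fell was under the 14.2% of all genes tested.

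Germline genes outside the piRNA pathway rose in part of each list. Of 15 germline sex and stem cell genes 7 rose and 0 fell by limma (median 0.23), with 0 lower also at an unadjusted p under 0.05, by edgeR and by DESeq2. Besides *nos*, these included *nclb* (from 400.9, 435.2 and 443.0 to 554.4, 548.8 and 528.4, log2 fold change 0.35), *snf*, a splicing factor of the *Sxl* switch (0.23), and *mei-P26*, a differentiation factor of the germline (0.23). *bam*, the switch that ends stem cell fate, was at 2.71, 7.27 and 3.79 against 10.5, 8.24 and 8.67 and did not pass the test (adjusted p = 0.15). Of 18 oocyte mRNA localization and translation genes 7 rose and 0 fell by limma (median 0.15), again with 0 lower at an unadjusted p under 0.05, by edgeR and by DESeq2, and with 1 lower when empty vector replicate 1 was left out. *orb*, the CPEB protein of the oocyte, rose from 19.5, 26.5 and 30.3 to 133.5, 98.9 and 153.8 (2.29, SE 0.21, adjusted p = 7.1e-08). *me31B* rose by 0.42, *BicD* by 0.36 and *tral* by 0.23, all 3 broadly expressed genes whose products act on stored or transported mRNA. Named after its values were seen, *osk*, the determinant of germ plasm, went from 3.79, 1.82 and 3.79 to 15.4, 14.4 and 12.6 (log2 fold change 1.91, adjusted p = 0.0028), which is 2.37 ± 0.21 RPM against 496.2 ± 117.4 in sorted germ cells (SD, n = 3 each).

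Of 16 maternal and egg activation genes 9 rose and 1 fell, with a median log2 fold change of 0.64. With *BigH1*, *alphaTub67C* and *zpg*, *wisp*, the cytoplasmic poly(A) polymerase of the oocyte, rose from 14.1, 7.64 and 11.4 to 69.9, 87.5 and 73.3 (2.73, SE 0.26). *zld*, the activator of the zygotic genome, was the one that fell, from 1410, 1378 and 1439 to 989.2, 944.2 and 838.3 (-0.61, adjusted p = 1.1e-07). Named after its values were seen, *yl*, the yolk protein receptor of the oocyte, rose from 4.64 to 52.1 normalized counts in the mean (log2 fold change 3.33). Of 19 meiotic chromosome genes 8 rose and 3 fell (median 0.18). *c(2)M*, a lateral element protein of the synaptonemal complex, went from 17.9, 15.6 and 11.4 to 58.7, 82.4 and 41.8 (1.93, SE 0.27, adjusted p = 2.1e-05). The central element genes *corolla* and *cona* rose by 0.41 and 0.24, and the cohesion gene *sunn* fell by 0.29. Without empty vector replicate 3, 5 fell. Named after its values were seen, *mtrm*, an inhibitor of Polo kinase in the oocyte, rose from 19.7 to 284.1 normalized counts in the mean (3.96, adjusted p = 0.0012). Of 7 testis meiotic arrest genes tested, 0 rose and 0 fell by limma, at an unadjusted p under 0.05, by edgeR and by DESeq2.

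Genes that define the somatic line changed in both directions. Of 21 follicle cell and somatic identity genes 9 fell and 5 rose, with a median log2 fold change of -0.15. At the limits for a call, 3 were higher and 2 lower. Without empty vector replicate 1, 6 fell and 5 rose, as they did without both the trend and the robust variance. By DESeq2 7 fell and 5 rose. *tj*, the Maf factor of somatic gonadal cells, went from 7419, 7284 and 7345 to 5124, 4949 and 4876 (-0.56, SE 0.033, adjusted p = 3.4e-10). *zfh1*, a transcriptional repressor that acts in somatic stem cells, went from 10500, 10580 and 10940 to 7630, 7144 and 6852 (-0.57, SE 0.037). *ptc*, the Hedgehog receptor, went from 5117, 5305 and 5445 to 3084, 3112 and 3045 (-0.78, SE 0.037, adjusted p = 1.8e-11). For all 3 the groups lay well apart. Against them, *dpp*, the BMP ligand, rose from 87.8, 96.4 and 87.1 to 258.0, 275.9 and 239.7 (1.5, SE 0.11), and the markers *eya* (0.21) and *Fas3* (0.27) rose a little. Of the 6 markers of the line, 3 fell (*tj*, *zfh1*, *fs(1)Yb*), 2 rose (*eya*, *Fas3*) and *piwi* did not pass the test. Of 8 eggshell and yolk protein genes tested, 2 rose and 2 fell. *dec-1* fell by 0.19 and *Vml* by 0.65, and *Yp3* rose by 0.78. *Vml* had an adjusted p of 0.075, 0.060 and 0.068 without empty vector replicate 1, empty vector replicate 2 and *ovo-FLAG* replicate 3. *Vm34Ca* had 0 reads in the controls and 16 after *ovo-FLAG*, at least 7.33-fold higher when 3 reads are taken as the floor of the whole group. With a mean of 2.09 it passed the filter through the *ovo-FLAG* libraries alone, so its selection favoured a rise. Its adjusted p was 0.058 to 0.063 without empty vector replicate 1, replicate 2 or *ovo-FLAG* replicate 2. By limma it was 0.16 with quantile normalization and 0.051 with a replicate block.

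Of 17 Netrin, Slit and Semaphorin guidance genes 9 fell and 2 rose (median -0.26). The Netrin receptors *fra* and *unc-5* went from 1347, 1308 and 1405 to 911.6, 981.2 and 918.8 (-0.53) and from 2035, 2097 and 1961 to 1616, 1455 and 1473 (-0.42). *Sema5c* fell by 0.55, and *Dscam1*, a receptor with many splice forms, rose by 0.77. Of 21 JAK/STAT and EGFR pathway genes 8 rose and 4 fell (median 0.11). The receptor *Egfr* fell from 1605, 1664 and 1590 to 1024, 989 and 926 (-0.73, SE 0.049, adjusted p = 1.7e-09). The protease *rho*, which releases EGFR ligands, rose by 1.01, the feedback inhibitor *sty* by 0.59 and the JAK/STAT feedback gene *Socs36E* by 0.63. Without *ovo-FLAG* replicate 3, 2 genes of the list fell. Of 13 Notch and E(spl) genes 4 rose and 2 fell (median 0.31). The ligand *Dl* (1.06), its ubiquitin ligase *neur* (0.36) and the inhibitor *numb* (1.38) rose, and the receptor *N* fell by 0.30, and 1 gene of the list fell without empty vector replicate 2, *ovo-FLAG* replicate 1 or *ovo-FLAG* replicate 3. Of 17 ecdysone synthesis and response genes 5 rose and 6 fell (median 0.12). Both subunits of the receptor fell, *EcR* by 0.50 and *usp* by 0.48, as did *Hr39* by 0.29, whereas *Eip93F* rose by 0.64.

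Matrix, adhesion and junction genes changed in either direction. Of 12 basement membrane genes 6 rose and 5 fell (median 0.29). The laminin *LanA* fell from 13680, 14990 and 14710 to 11430, 10740 and 10620 (-0.40) and *SPARC* by 0.67, while the laminin *wb* rose by 1.07 and *trol*, the perlecan gene, by 0.45. Of 28 adhesion and polarity genes 12 rose and 6 fell (median 0.12), with the apical determinant *crb* (0.51) and the basolateral gene *l(2)gl* (0.41) higher and *ed* (-0.43) and *Nrt* (-0.33) lower. Of 6 innexin genes *zpg* rose and the somatic *Inx2* and *Inx3* fell by 0.30 and 0.23, with a median of -0.16. *Inx3* had an adjusted p of 0.059 without *ovo-FLAG* replicate 3.

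Stress, immune and epidermal lists held a larger share of risen genes than all genes tested, of which 16.2% rose and 14.2% fell. The heat shock list and the stress, apoptosis and JNK list also held a larger share of fallen genes. Of 14 heat shock and chaperone genes 8 rose and 3 fell (median 0.50). The small heat shock genes *Hsp23*, *Hsp26*, *Hsp27* and *Hsp67Bc* rose by 1.01, 0.61, 0.78 and 1.99, with *Hsp23* at 882.0, 771.9 and 874.6 against 1720, 1679 and 1673. Of 24 stress, apoptosis and JNK genes 12 rose and 7 fell (median 0.25). *Mmp1*, a matrix metalloprotease, went from 1638, 1667 and 1522 to 4296, 4323 and 4113 (1.4, SE 0.043, adjusted p = 9.0e-14). *upd2*, a JAK/STAT ligand, rose by 2.06, *Corp*, a p53 target, by 1.03 and *puc*, the JNK phosphatase, by 0.39. Of 18 immune response genes 9 rose and 2 fell (median 0.70), or 1 without *ovo-FLAG* replicate 2. Beside *PGRP-SA*, the receptors *Tl* (from 133.3, 144.7 and 98.4 to 296.4, 308.9 and 301.3, log2 fold change 1.28) and *PGRP-LC* (4.33) and the IMD inhibitor *pirk* (0.77) rose. Of the antimicrobial peptide genes in the list (*Dro*, *DptA*, *DptB*, *AttA* to *AttD*, the *Cec* genes, *Mtk*, *Drs* and *Def*), *AttD* and *Def* passed the filter on low counts, and neither passed the test. Of 13 epidermal trichome genes, which Shavenbaby controls in the embryo, 9 rose and 0 fell by limma (median 1.06), with 0 lower at an unadjusted p under 0.05, by edgeR and by DESeq2, and 6 to 10 higher over the 17 alternatives. *kkv*, *zye* (1.44), *Dl* and *tyn* (0.69) had the smallest p of these, and with quantile normalization 6 genes of the list rose and 1 fell.

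**Figure D3:**
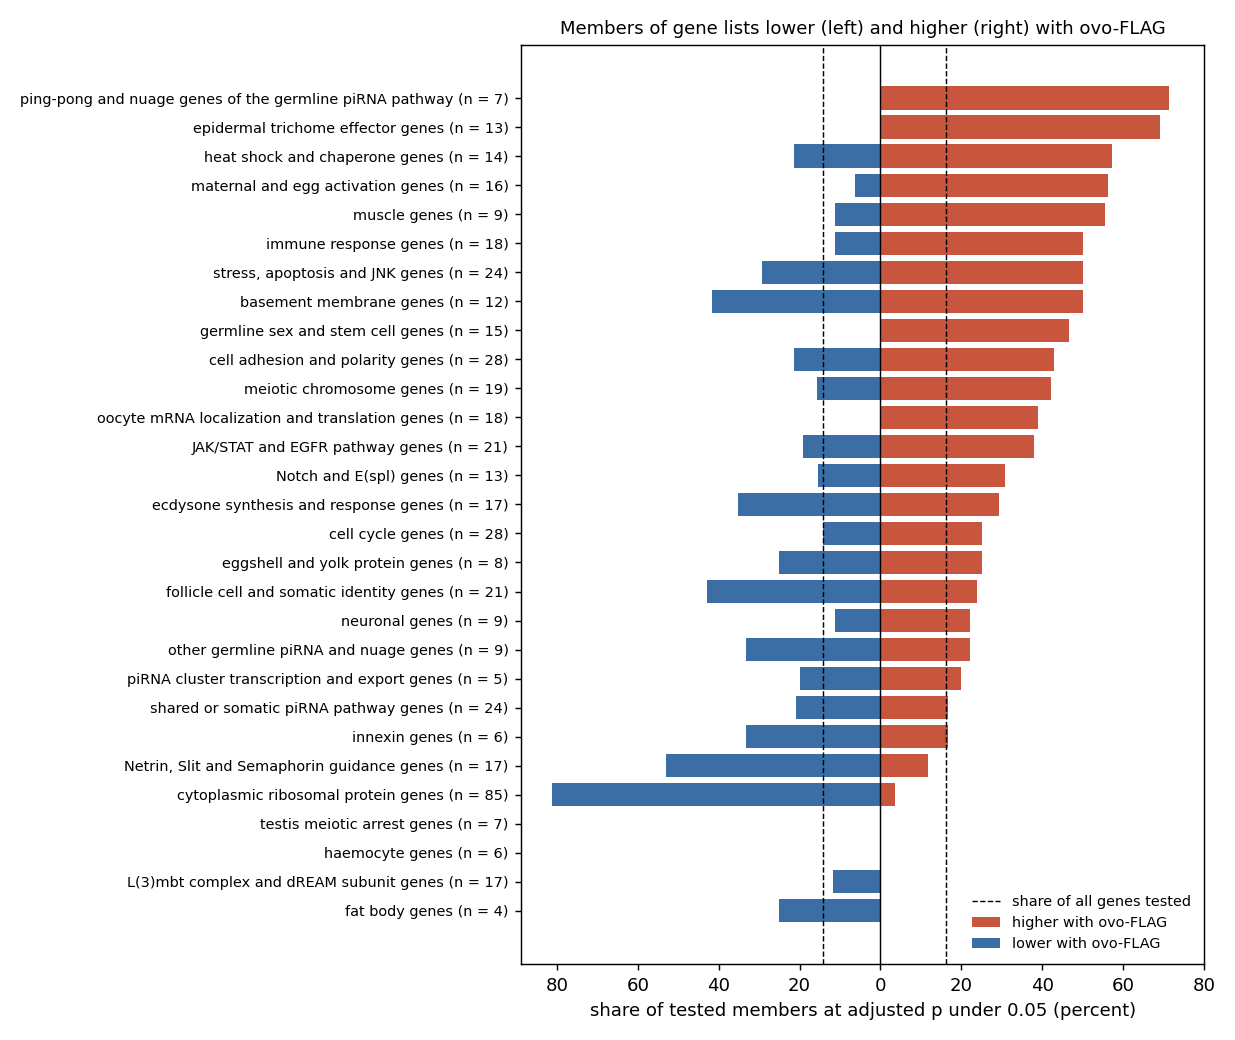
Share of the tested members of each gene list (n in parentheses) with an adjusted p under 0.05, higher with *ovo-FLAG* to the right (red) and lower to the left (blue), in percent. Dashed lines mark the shares of all genes tested, 16.2% higher and 14.2% lower. Ping-pong and nuage genes reach furthest to the right and cytoplasmic ribosomal protein genes furthest to the left.

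Of 85 cytoplasmic ribosomal protein genes 69 fell and 3 rose, with a median log2 fold change of -0.20. The falls were small. *sta* went from 13210, 13030 and 13120 to 9275, 9219 and 9344 (-0.50, SE 0.029), *RpS9* fell by 0.41, *RpL7* by 0.31 and *RpS4* by 0.28. The median stayed below that of all genes with each scaling, but with quantile normalization it was -0.08 and 39 fell, and without both the trend and the robust variance 37 fell. Of 28 cell cycle genes 7 rose and 4 fell (median 0.03). *CycE* (0.45), *RnrL* and *PCNA* (each 0.25) rose, and the mitotic phosphatase *stg* fell by 0.41.

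Genes of other cell types were mostly at or near 0. Of the markers of muscle, *Act88F*, *Tm2* and *up* had at most 4.12 normalized counts in any library. The sum over 5 markers went from 45.5 to 79.5 with the empty vector to 131.7 to 149.6 with *ovo-FLAG* through *Mhc*, the muscle myosin (34.7, 34.9 and 64.4 against 134.2, 119.4 and 116.7). Of 9 muscle genes tested 5 rose and 1 fell (median 0.42), with *sls* at 0.75 and *Tm1* at -0.43. *wupA* had 70 reads against 1, a ratio per counted read of 96.1 (exact 95% interval 16.7 to 3851, counting error only). The sum over haemocyte markers was 677.7 to 724.8 against 695.6 to 719.7, nearly all of it *srp*, with *NimC1* and *eater* at 1.03 or less. That over neuronal markers was 1234 to 1348 against 1286 to 1418, nearly all of it *elav*. Of 9 neuronal genes 2 rose (*para*, *nSyb*) and 1 fell (*cac*). Without any 1 library with *ovo-FLAG*, *nSyb* had an adjusted p of 0.060 to 0.12, and with quantile normalization 0 rose. Fat body markers summed to at most 14.98, and of 4 such genes tested the widely used *FASN1*, a fatty acid synthase, fell by 0.75. Of 6 haemocyte genes 0 rose and 0 fell by limma, at an unadjusted p under 0.05 and by DESeq2, and 1 rose by edgeR and without empty vector replicate 3. The part of these genes in the other results was not tested.

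Genes were next classed by what other libraries of the series show of them. In sorted ovarian cells, 663 of the 8680 genes also tested there were germline-enriched (log2 fold change above 1, adjusted p under 0.01) and 703 soma-enriched. Of the germline-enriched genes 24.6% were called higher with *ovo-FLAG* in Δ*l(3)mbt* OSCs, and 2.71% lower. Of the soma-enriched genes 13.5% were higher and 5.55% lower, and of the rest 6.88% and 2.01%. Read the other way, 21.4% of the 761 higher genes tested in sorted cells were germline-enriched, where 7.64% of all genes were, and 19.1% of the 204 lower genes were soma-enriched, where 8.10% were. Germline-enriched genes made up the larger enriched class among the rises without being most of them. These shares are descriptions with no test.

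In wild-type OSCs, 763 (8.76%) of the 8706 genes tested in both lines were higher with *ovo-FLAG* and 98 (1.13%) lower. Both lines called 457 genes higher, which is 58.7% of the 778 higher in Δ*l(3)mbt* OSCs and 59.9% of those higher in wild-type OSCs. Both called 36 lower, which is 16.3% of 221 and 36.7% of 98. Over all genes tested in both, 8.94% were higher and 2.54% lower in Δ*l(3)mbt* OSCs. The experiments share no library. The 763 genes were further split by how the untransfected lines differ. For 267 that were higher in the Δ*l(3)mbt* line at the outset (log2 fold change above 0.6, adjusted p under 0.05, total RNA), 49.4% were called higher with *ovo-FLAG*, with a median log2 fold change of 0.62. For 346 that were not called between the lines these were 61.8% and 1.03, and for 59 that were lower in the Δ*l(3)mbt* line 72.9% and 1.4. For the remaining 91, which were not tested between the lines, they were 74.7% and 2.31. The median in wild-type OSCs, whose libraries chose these genes, was 1.45, 1.39, 1.14 and 2.44 in the same order.

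**Figure D4:**
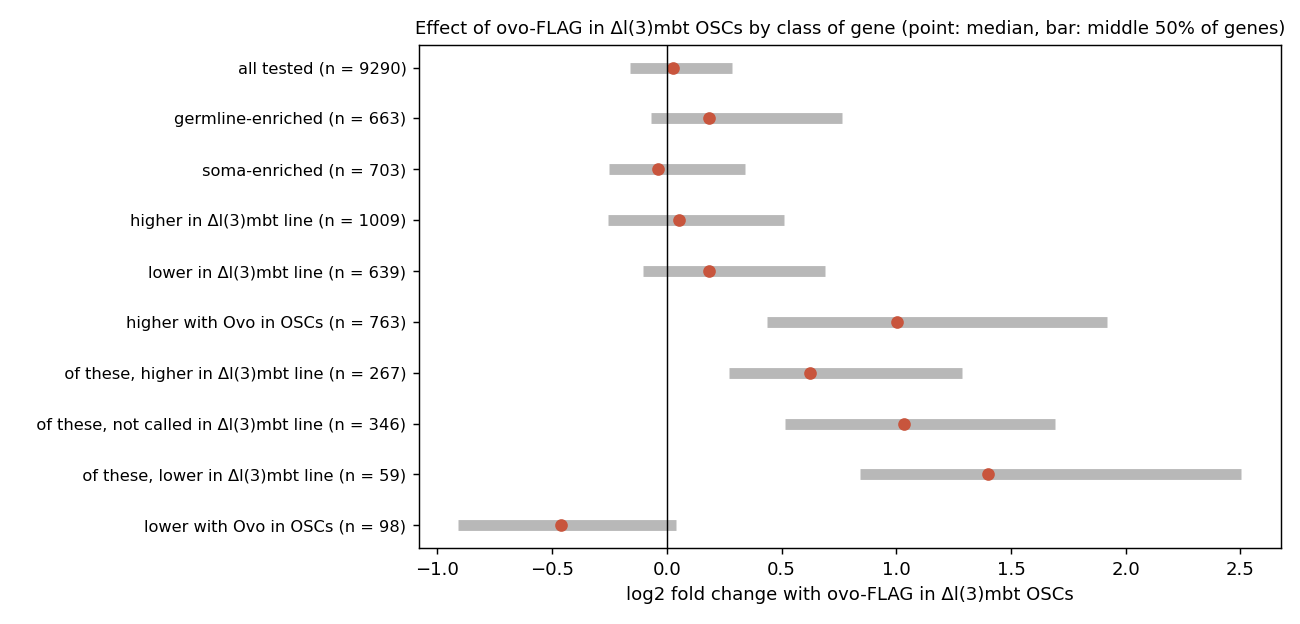
Log2 fold change with *ovo-FLAG* in Δ*l(3)mbt* OSCs by class of gene, with the median (point) and the range from the lower to the upper quartile (bar). Classes come from sorted ovarian cells, from the untransfected lines and from *ovo-FLAG* in wild-type OSCs, with the number of genes in parentheses and without the 91 not tested between the lines. Among genes higher with Ovo in wild-type OSCs, the median is 0.62 for those already higher in the Δ*l(3)mbt* line and 1.4 for those lower in it.

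The difference of the 2 effects was tested gene by gene over the 12 poly(A) libraries, with each effect taken within its own table. Wild-type libraries with *ovo-FLAG* had 2266961 to 5203428 counted reads, and their controls 7640729 to 12562590. The part of this depth difference in the results was not tested. Of 8706 genes, 226 (2.60%) had a lower log2 effect in Δ*l(3)mbt* OSCs and 92 (1.06%) a higher one (adjusted p under 0.05 and a difference beyond 0.6). Of the 226, 148 were among the 1009 genes higher in the untransfected Δ*l(3)mbt* line, and of the 92, 54 were among the 639 lower in it. *ovo* had the largest difference among the 6 genes with the smallest p on the lower side (-4.64, SE 0.16), with the higher starting level given above. *RpS5b*, a ribosomal protein paralog that is high in germ cells of the ovary, rose in wild-type OSCs from 107.1 ± 5.15 to 625.1 ± 33.5 normalized counts (SD, n = 3 each). In Δ*l(3)mbt* OSCs it was at 4582, 4484 and 4494 with the empty vector and 3948, 4106 and 4127 with *ovo-FLAG*, a difference of effects of -2.69 (SE 0.078, adjusted p = 4.3e-18). *CG34417* likewise went from 759.7 ± 51.2 to 2747 ± 240.9 in wild-type OSCs and from 4826 ± 292.1 to 4403 ± 166.2 in Δ*l(3)mbt* OSCs (difference -1.98). *stv*, a cochaperone, rose in wild-type OSCs (log2 fold change 0.86) and fell in Δ*l(3)mbt* OSCs (-0.35). *CG14516* rose in both, by 5.89 from 2.34 ± 1.37 and by 1.68 from 185.0 ± 28.6.

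Germline genes that rose in both lines often rose less in Δ*l(3)mbt* OSCs on the log2 scale. The differences were -2.52 for *CG13741* (Bootlegger), -2.35 for *tej*, -2.18 for *BigH1*, -1.89 for *nos*, -1.29 for *aub* and -1.17 for *vas*. The levels reached were set side by side and not tested. *BigH1* reached 80.4 ± 5.87 RPM in Δ*l(3)mbt* OSCs and 36.5 ± 5.12 in wild-type OSCs, *nos* 35.8 ± 2.08 and 20.1 ± 2.00, and *aub* 47.4 ± 1.32 and 28.3 ± 5.31 (SD, n = 3 each). *zpg*, with a difference of -2.52, reached 18.8 ± 2.03 RPM in Δ*l(3)mbt* OSCs and 26.3 ± 2.64 in wild-type OSCs. With the empty vector, *BigH1* was at 1.95 ± 0.59 RPM in Δ*l(3)mbt* OSCs and 0.053 ± 0.092 in wild-type OSCs. *AGO3* (difference -0.54, SE 0.36, adjusted p = 0.41), *qin* (0.004, adjusted p = 0.99) and *alphaTub67C* (0.004, adjusted p = 0.996) did not pass the test.

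Genes with a higher effect in Δ*l(3)mbt* OSCs were in part ones that the Δ*l(3)mbt* line had less of. *Argk*, arginine kinase, was at 7962 ± 386.6 and 7294 ± 344.1 in wild-type OSCs and rose from 3134 ± 170.9 to 4681 ± 66.1 in Δ*l(3)mbt* OSCs (difference 0.71). *SK*, a calcium-activated potassium channel, fell in wild-type OSCs (-0.32) and rose in Δ*l(3)mbt* OSCs (0.58). *Tl* was at 318.7 ± 7.01 and 316.1 ± 9.22 in wild-type OSCs and rose to 302.2 ± 6.29 in Δ*l(3)mbt* OSCs. *Idgf4*, an imaginal disc growth factor (difference 1.78), *osp* (0.65) and *tio*, a zinc finger factor (1.75), completed the 6 with the smallest p. *tio* stayed at 7.58, 8.73 and 7.57 against 30.1, 23.7 and 26.8, far under the 539.4 ± 13.3 of wild-type OSCs. *Mhc* and *sls* rose in Δ*l(3)mbt* OSCs by 1.29 and 1.14 more than in wild-type OSCs. Falls also differed. *cac*, a voltage-gated calcium channel gene (chromosome X, 11931280 to 11985087), went from 2984, 2572 and 3120 to 1297, 1332 and 1151 in Δ*l(3)mbt* OSCs and from 507.5 ± 30.4 to 545.6 ± 32.9 in wild-type OSCs (difference -1.30, SE 0.10, adjusted p = 2.5e-09). *ptc* (-0.48), *tj* (-0.37) and *zfh1* (-0.36) fell more in Δ*l(3)mbt* OSCs, with adjusted p of 3.6e-06, 0.0002 and 0.0003 and differences under the 0.6 needed for a call.

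**Figure D5:**
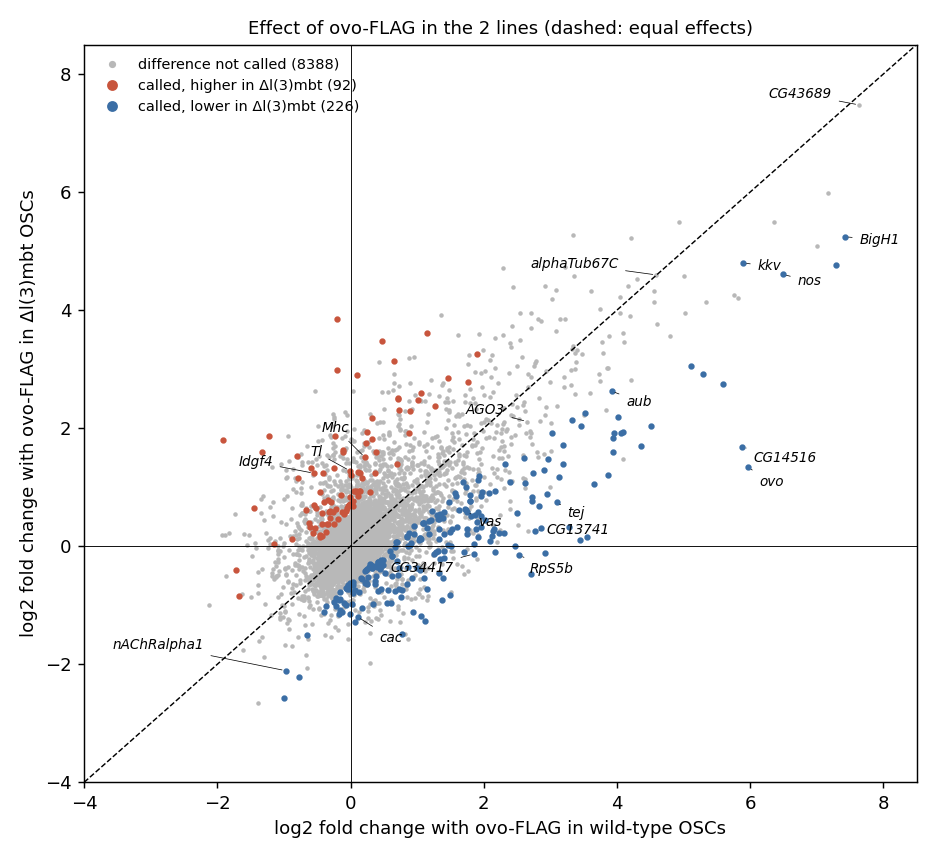
Log2 fold change with *ovo-FLAG* in Δ*l(3)mbt* OSCs (vertical) against that in wild-type OSCs (horizontal) for the 8706 genes tested in both, with equal effects on the dashed line. The 226 genes with a called lower effect in Δ*l(3)mbt* OSCs are blue and the 92 with a higher one red. *ovo*, *CG14516* and *RpS5b* lie far under the line, and *CG43689* and *alphaTub67C* lie on it.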

How the data were processed

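RNA of Δ*l(3)mbt* OSCs with *ovo-FLAG* or the empty vector (3 libraries each, 48 h) was the main data. Per the labels and methods, cutadapt (1.18) trimmed the reads, STAR (2.7.3a) placed them on BDGP6, and featureCounts of Subread (1.5.3) counted them by gene and strand. The deposited signal is this count over a size factor from DESeq2 (1.30.1), estimated separately for every table by the authors. Every value was a whole multiple of 1 read (tolerance 0.001), so reads were recovered. Tables of the authors' fold changes and p-values were not used, and 0 columns of sample values were left unused.

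For the test, limma (3.58.1, in R 4.3.3, trend and robust variance) was fitted to log2(normalized count + 1) of genes averaging 2 or more, in the 6 libraries and without a block. Alternatives were edgeR (4.0.16) and DESeq2 (1.42.0) on recovered reads, other filters, pseudocounts and scalings, and leaving out each library. The adjusted p limit of 0.1 is that stated for this line, and the 0.6 that for OSCs. Named genes are *ovo*, *l(3)mbt*, *nos*, *fs(1)Yb* and 13 germline piRNA genes, the 12 largest rises and 12 largest falls without overlap and with a higher group averaging 100 or more, up to 4 members per list with the smallest p and examples of no change, 6 genes each way with the smallest p for the difference, and genes at the filter. Members and lists were chosen with earlier results of these data known. Of 17807 symbols, 17755 matched the annotation (Ensembl, BDGP6.54). The statistics were tested on simulated data. Replicate pairs differed by 1.52 to 3.19 times the variance of counting alone. Whether replicates were separate cultures is not stated in the labels, so p-values measure the spread between these libraries. Promoter motifs were not analysed here.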

Additional observations from a re-analysis of the deposited data

Results flagged for a closer look

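By a test of the difference (limma over 12 libraries), the log2 effect of *ovo-FLAG* was higher in Δ*l(3)mbt* OSCs than in the wild-type line for 92 genes and lower for 226. The following differences, as log2 effect in Δ*l(3)mbt* OSCs minus that in wild-type OSCs, are of genes named by the rule. Lower among germline and piRNA genes were *ovo* (-4.64), *nos* (-1.89), *aub* (-1.29), *tej* (-2.35), *vas* (-1.17), *CG13741* (-2.52), *BigH1* (-2.18), *zpg* (-2.52, adjusted p = 0.048) and *c(2)M* (-2.03). Lower among other risen genes were *kkv* (-1.09), *dpp* (-1.10), *Hsp23* (-0.73), *Hsp26* (-1.12), *pirk* (-1.03), *Mmp1* (-0.92), *puc* (-0.69), *crb* (-1.30), and *CG14516* (-4.21). Genes that fell in Δ*l(3)mbt* OSCs and had a lower effect there were *CG9521* (-1.57), *Ugt317A1* (-1.44), *nAChRalpha1* (-1.13), *CG14855* (-0.85), *Thor* (-1.35), *Vml* (-1.02), *stg* (-0.63), *cac* (-1.30), *RpS5b* (-2.69), *CG34417* (-1.98) and *stv* (-1.20). The falls of *RpS5b* and *CG34417* in Δ*l(3)mbt* OSCs were small (log2 fold change -0.15 and -0.13). With quantile normalization their adjusted p by limma was 0.21 and 0.86. Higher in Δ*l(3)mbt* OSCs were *Yp3* (1.12), *Tl* (1.29), *trol* (0.64), *sls* (1.14), *Mhc* (1.29), *Argk* (0.71), *SK* (0.90), *Idgf4* (1.78), *tio* (1.75) and *osp* (0.65). For *zpg*, *BigH1*, *nos*, *tej* and *CG14516* at least 1 group of wild-type libraries was close to 0, where the pseudocount enters the effect. Other genes also had few reads there, such as *CG13741*, at 1.02 ± 0.29 RPM with the empty vector (SD, n = 3).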

How the results depend on the processing

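Counts of called genes depended on the scaling. Quantile normalization gave 607 genes higher and 565 lower, sharing 591 and 221 with the calls reported, and over the 5 libraries without empty vector replicate 3 (chosen after seeing the data) it gave 631 and 545. The cause was not tested. Over the other alternatives 602 to 1045 were higher and 198 to 264 lower. Leaving out each library in turn gave 712 to 933 higher and 198 to 258 lower, and for the difference between the lines 66 to 109 and 192 to 241. Over the remaining alternatives the difference was called for 82 to 110 and 210 to 267 genes.

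Named genes were compared by an adjusted p under 0.05 with no limit on the fold. Of 133 tested, 14 that passed this limit missed it under at least 1 alternative, and 2 that missed it (*Nxf3* and *cuff*) passed it. Another 2 cases were turns in direction under the quantile normalization without empty vector replicate 3, *rhi* to -0.061 (adjusted p = 0.93) and *CG34417* to 0.028 (adjusted p = 0.58). Without both the trend and the robust variance, 5 adhesion, 5 JAK/STAT and EGFR and 4 cell cycle genes rose.

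No pairing of the samples by replicate number was seen, though low correlations cannot exclude it. Deviations of same-numbered libraries correlated at 0.037, 0.001 and 0.028 over 6554 genes, and not every library correlated best with its own number. A replicate block gave 870 higher and 227 lower, and 96 and 237 for the difference between the lines. The shallow library limits genes with few reads, since 1 read there is worth 3.79 normalized counts. Without it the log2 fold change of *zpg*, *Gs1* and *rhi* was lower (3.73, 3.43 and 0.41). That of *AGO3* and *nos* was higher (2.46 and 4.85).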
